A study of Mus musculus with 8 samples.

Results

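TRBV12-1 and TRBV12-2 are the functional V segments of the mouse T cell receptor beta locus (TRB) that serology calls Vbeta5. The cells described here were chosen by the V segment name of their productive TRB chain, which had to be exactly TRBV12-1 or TRBV12-2. They were 754 of the 6509 cells with a TRB chain, and they formed 409 clones. The joined name TRBV12-2+TRBV13-2, which the deposited tables also hold, was not taken as a member. T cells came from CD45+ immune cells sorted from brain parenchyma. The mice were 5xFAD;Cxcr6-/-, which lack the chemokine receptor CXCR6, or 5xFAD, and all were on the C57BL/6 strain. Both groups therefore carry the 5xFAD transgenes, which the neuronal Thy1 promoter drives, and no group without amyloid was included. Each genotype gave 2 receptor libraries, made with the Chromium Single Cell Immune Profiling v2 kit. The labels do not say whether the libraries of a genotype came from separate mice or pools, so the spread between libraries may be technical. The exact tests here rest on that spread. The fits of segment counts (edgeR, DESeq2) also draw their estimate of spread from other segments. A small p there is thus not a measure of agreement between libraries for that segment alone. The matched expression profiles are not analysed here; the absence of Cxcr6 transcript could not be checked and CD4 and CD8 T cells were not told apart.

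Each alpha beta T cell carries a beta chain assembled from a V, a D and a J segment and an alpha chain (TRA) assembled from a V and a J segment. The third complementarity determining region (CDR3) spans the joint and contacts the peptide, while CDR1 and CDR2 are encoded by the germline V segment and lie mostly over the MHC. Vbeta5 is a textbook case of shaping by endogenous superantigens: T cells with Vbeta5 are deleted in strains that express the MHC molecule I-E together with certain mammary tumour proviruses, and they persist in C57BL/6, which lacks I-E. CXCR6 binds CXCL16 and is carried by activated and tissue-resident T cells and by natural killer T cells.

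The members lie 4783 bases apart on chromosome 6 of GRCm38, the build that mm10 names. TRBV12-1 is at chr6:41113550-41114067 and TRBV12-2 at chr6:41118851-41119364, both on the + strand and annotated as TR_V_gene in GENCODE vM21. RefSeq lists them under the older names Tcrb-V5.2 and Tcrb-V5.1. TRBV12-3, a pseudogene in the same cluster, had 0 contigs. The germline V sequences from the mature start to the CDR3 end are shown because they separate the members, with capitals at the bases that differ.

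TRBV12-1: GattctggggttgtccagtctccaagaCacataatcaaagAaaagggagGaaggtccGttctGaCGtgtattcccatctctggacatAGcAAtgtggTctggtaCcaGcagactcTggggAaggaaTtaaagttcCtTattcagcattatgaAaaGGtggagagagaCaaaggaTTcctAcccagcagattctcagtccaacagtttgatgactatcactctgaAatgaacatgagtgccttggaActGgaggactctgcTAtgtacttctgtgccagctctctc

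TRBV12-2: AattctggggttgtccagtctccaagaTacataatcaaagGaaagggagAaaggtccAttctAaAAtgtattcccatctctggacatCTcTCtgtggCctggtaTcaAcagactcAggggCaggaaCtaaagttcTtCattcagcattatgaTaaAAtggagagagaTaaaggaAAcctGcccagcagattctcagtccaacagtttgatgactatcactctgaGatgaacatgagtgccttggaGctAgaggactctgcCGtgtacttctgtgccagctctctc

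The members differed at 32 of 285 bases (88.8% identity). The differing bases lay mostly in the framework, with 4 of 15 in CDR1 and 3 of 18 in CDR2, and the 15 germline bases that begin CDR3 were identical. Of the deposited contigs, 318 of 319 named TRBV12-1 and 437 of 437 named TRBV12-2 equalled their germline sequence, so the names separate the members. All 728 contigs with the joined name equalled TRBV13-2 and 0 equalled TRBV12-2. The germline loops that lie over the MHC are shown on their own, with capitals again at the differing bases.

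TRBV12-1 CDR1: tctggacatAGcAAt

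TRBV12-2 CDR1: tctggacatCTcTCt

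TRBV12-1 CDR2: cattatgaAaaGGtggag

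TRBV12-2 CDR2: cattatgaTaaAAtggag

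The CDR3 sequences of the largest clone of each library show how its V and J segments were joined. Capitals mark bases that match neither the germline V end nor the germline J start, and a chance match lengthens a germline part. The germline D segment was not matched, so capitals can hold D bases as well as bases added at joining.

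5xFAD;Cxcr6-/- library 1, TRBV12-2 and TRBJ2-5, 5 cells: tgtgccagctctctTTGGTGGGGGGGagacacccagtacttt

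5xFAD;Cxcr6-/- library 2, TRBV12-2 and TRBJ2-5, 25 cells: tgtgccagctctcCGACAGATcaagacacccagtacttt

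5xFAD library 1, TRBV12-1 and TRBJ2-7, 34 cells: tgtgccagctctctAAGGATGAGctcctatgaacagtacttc

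5xFAD library 2, TRBV12-2 and TRBJ1-1, 68 cells: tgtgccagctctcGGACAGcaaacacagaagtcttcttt

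The 4 chains kept 13 or 14 of the germline V bases. Between 6 and 12 bases, D bases included, lay between the germline V and J parts. Largest clones used TRBV12-2 in 3 libraries and TRBV12-1 in 5xFAD library 1.

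The libraries differed in size, which bears on every clone size. Cells with a TRB chain numbered 745 and 1304 in the 5xFAD;Cxcr6-/- libraries, against 2022 and 2438 in the 5xFAD libraries. Their median was 9 to 10 unique molecules (UMIs) per TRB chain. TRBV12 chains had medians of 8 and 11 UMIs in 5xFAD;Cxcr6-/- libraries and 7 and 8 in 5xFAD libraries, against 10 and 10, and 10 and 9, for the other TRB chains of the same libraries. Between 0 and 12 cell barcodes were shared by a pair of libraries, and 0 of them carried the same TRB CDR3. Intervals below are 95% Clopper-Pearson intervals and cover counting error only.

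TRBV12 clones made up about 1 in 10 clones in every library. A clone is a deposited clonotype with a TRB chain. The family held 57 of 555 clones (10.3%, interval 7.87 to 13.1) and 94 of 1028 (9.14%, 7.45 to 11.1) in 5xFAD;Cxcr6-/- libraries 1 and 2. It held 108 of 1272 (8.49%, 7.02 to 10.2) and 150 of 1489 (10.1%, 8.59 to 11.7) in 5xFAD libraries 1 and 2. The genotypes overlapped. The means were 9.71% ± 0.796 in 5xFAD;Cxcr6-/- and 9.28% ± 1.12 in 5xFAD (SD, n = 2 each), a difference of 0.425 percentage points (two-sided exact permutation p = 0.667). With 2 libraries against 2 the smallest p such a test allows is 0.333.

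The same count of cells was less even. TRBV12 was carried by 67 cells (8.99%, interval 7.04 to 11.3) and 135 cells (10.4%, 8.75 to 12.1) in the 5xFAD;Cxcr6-/- libraries. In the 5xFAD libraries it was carried by 180 cells (8.90%, 7.70 to 10.2) and 372 cells (15.3%, 13.9 to 16.7). 5xFAD library 2 stood above the other 3, whose intervals overlap. The difference of means was -2.41 percentage points (9.67% ± 0.961 in 5xFAD;Cxcr6-/- and 12.1% ± 4.49 in 5xFAD, SD, n = 2 each; exact permutation p = 1). Without 5xFAD library 2 it was 0.771 percentage points. Without the largest TRBV12 clone of each library the shares were 8.50% and 8.67% in 5xFAD;Cxcr6-/- libraries and 7.34% and 12.8% in 5xFAD libraries. In 5xFAD library 2 the TRB chain of that clone was spread over 3 clonotypes, and only the largest was left out.

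**Figure D1:**
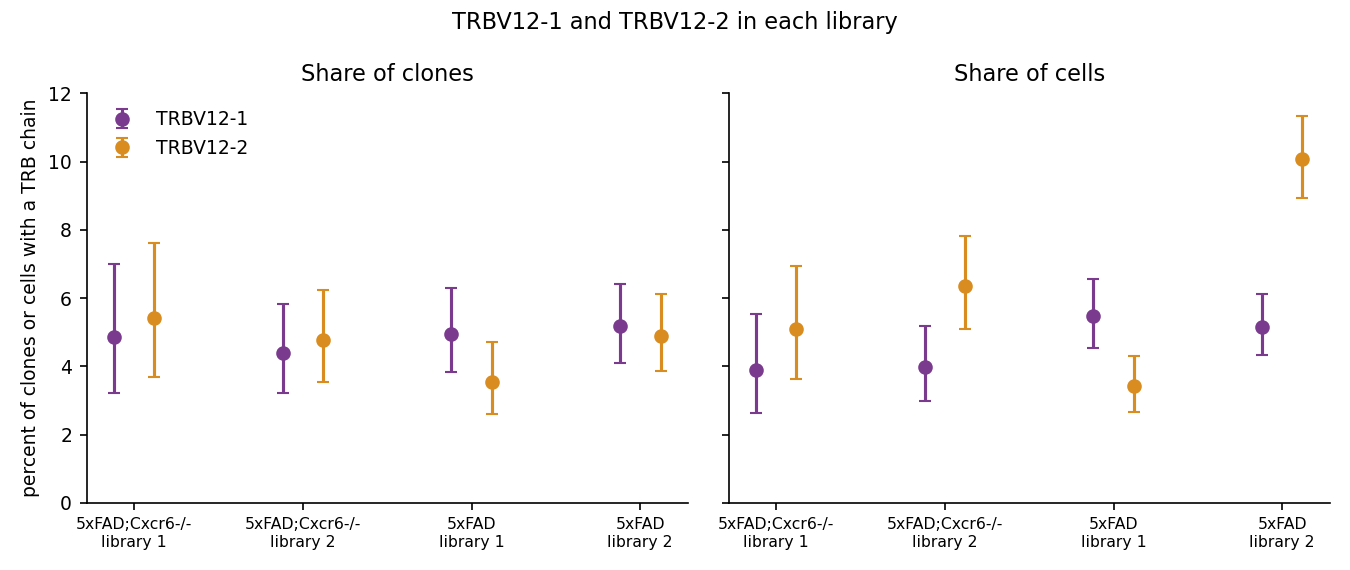
Percent of clones (left) and of cells (right) with a TRB chain that carried TRBV12-1 or TRBV12-2 in each library; points are the library's share and bars the 95% Clopper-Pearson interval. TRBV12-2 held 10.1% of cells in 5xFAD library 2 but 4.90% of its clones.

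Each member was used by about 1 in 20 clones. TRBV12-1 had 4.86% and 4.38% of clones in the 5xFAD;Cxcr6-/- libraries, against 4.95% and 5.17% in the 5xFAD libraries. Both 5xFAD;Cxcr6-/- values lay below both 5xFAD values, but 21 of 152 segments of either chain did the same (13.8%), so the order is no result about TRBV12-1. By cells TRBV12-1 had 3.89% and 3.99%, against 5.49% and 5.17%, again without overlap, as had 17 of 153 segments (11.1%).

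TRBV12-2 had 5.41% and 4.77% of clones in the 5xFAD;Cxcr6-/- libraries, against 3.54% and 4.90% in the 5xFAD libraries. By cells it had 5.10% and 6.37%, against 3.41% and 10.1%. The 5xFAD libraries thus held both the lowest and the highest TRBV12-2 share of cells.

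Neither member was called in the fit of all V and J segments of both chains by genotype (edgeR quasi-likelihood test, Benjamini-Hochberg adjustment, threshold 0.05). It called 2 of 152 segments (1.32%), TRAV11 and TRAJ18, and neither member. TRBV12-1 had a log2 fold change, 5xFAD;Cxcr6-/- over 5xFAD, of -0.15 (SE 0.21, edgeR adjusted p = 0.883), and TRBV12-2 one of 0.24 (SE 0.23, edgeR adjusted p = 0.788). The median over all 152 segments was 0.14 (log2), and 0.03 with either DESeq2 size factors or TMM scaling. With cells counted in place of clones TRBV12-2 turned to -0.20 (edgeR adjusted p = 0.970). Of the 20 other TRBV labels tested, 0 were called in either direction, with 4 at an unadjusted p under 0.05 and 12 above 0. DESeq2 called 0 of them, with 1 at an unadjusted p under 0.05.

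By their profile over the 4 libraries, the TRBV labels most like the family were TRBV13-3, TRBV15 and TRBV16. Likeness was the Euclidean distance between log2 shares of clones, each centred on its own mean, and the distances were 0.0796, 0.111 and 0.167. The profile of TRBV13-3 was 7.75% and 7.39% of clones in 5xFAD;Cxcr6-/- libraries and 6.84% and 7.92% in 5xFAD libraries. These 4 points share the libraries and their depth.

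Most TRBV12 clones were single cells. Of 409 clones, 70 were expanded, meaning 2 or more cells, and 339 were single. The 3 largest TRBV12 clones held 5, 4 and 3 cells in 5xFAD;Cxcr6-/- library 1 and 25, 7 and 6 cells in 5xFAD;Cxcr6-/- library 2. They held 34, 10 and 9 cells in 5xFAD library 1 and 68, 39 and 23 cells in 5xFAD library 2. The larger clones were in the larger libraries, with 5xFAD library 2 holding the 2 largest of all. Among the 10 largest clones of a library, TRBV12 had 0 and 2 in the 5xFAD;Cxcr6-/- libraries and 1 and 3 in the 5xFAD libraries. Its shares of all clones were 10.3%, 9.14%, 8.49% and 10.1% in the same order. The 3 in 5xFAD library 2 are the clones of 68, 39 and 23 cells, and those of 68 and 23 cells have the same TRB CDR3.

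**Figure D2:**
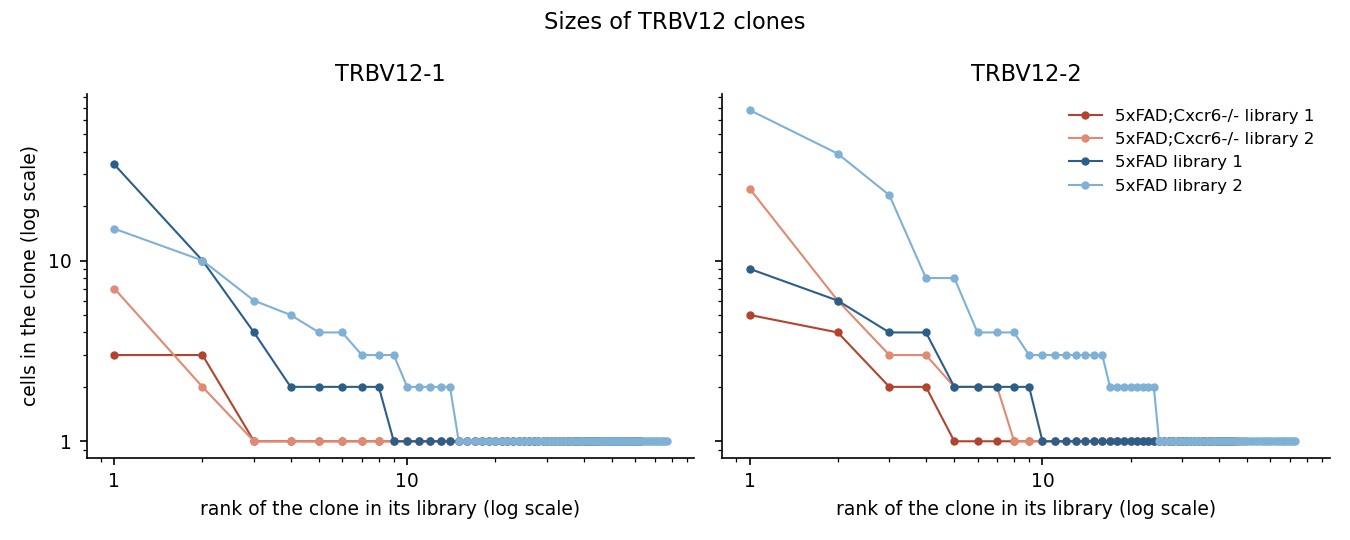
Cells per clone against the rank of the clone in its library, both on log scales, for TRBV12-1 (left) and TRBV12-2 (right); each point is a clone and each line a library. The largest clones are the 68-cell and 39-cell TRBV12-2 clones of 5xFAD library 2, and the largest TRBV12-1 clone held 34 cells in 5xFAD library 1.

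Deposited clonotypes split the most abundant chain. The 23-cell clone of 5xFAD library 2 had no TRA chain and the same TRB CDR3 as the 68-cell clone printed above. A further small clonotype shared it too. Counted by the TRB chain alone, this TRBV12-2 and TRBJ1-1 chain was in 93 cells over 3 clonotypes, or 3.81% of that library's cells with a TRB (interval 3.09 to 4.65). In the other libraries the most abundant TRBV12 chains were in 4 and 24 cells in the 5xFAD;Cxcr6-/- libraries and in 34 cells in 5xFAD library 1. In 5xFAD library 2, 9 TRBV12 chains were spread over 21 clonotypes, 10 of them without a TRA, while 1 and 0 chains were split in the 5xFAD;Cxcr6-/- libraries and 1 in 5xFAD library 1. Of the 70 expanded clones, 3 had their TRBV12 chain in only 1 cell.

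The alpha partners of the large clones differed from library to library. The 68-cell clone of 5xFAD library 2 paired with TRAV16D-DV11 and TRAJ27, and its 39-cell clone with TRAV12-1 and TRAJ49. The 34-cell clone of 5xFAD library 1 paired with TRAV13-2 and TRAJ18, and the 25-cell clone of 5xFAD;Cxcr6-/- library 2 with TRAV12D-3 and TRAJ24. The CDR3 of the 39-cell clone is shown because it ranks second of all.

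5xFAD library 2, TRBV12-2 and TRBJ2-7, 39 cells: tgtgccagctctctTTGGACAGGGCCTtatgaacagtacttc

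TRBV12-2 made up a larger share of expanded than of single clones in each of the 4 libraries, but the difference did not pass the adjusted threshold. In the 5xFAD;Cxcr6-/- libraries it was 5.97% of expanded against 5.33% of single clones, and 6.67% against 4.55%. In the 5xFAD libraries it was 6.25% of expanded against 3.19% of single clones, and 9.64% against 3.95%. The gap was smallest in 5xFAD;Cxcr6-/- library 1 and widest in 5xFAD library 2. Its log2 fold change, expanded over single, was 0.91 (SE 0.28, edgeR adjusted p = 0.0612), with 15 of 152 segments (9.87%) higher among expanded clones in 4 of 4 libraries. The fit called 2 of 152 segments (1.32%), TRAV11 and TRAJ18, and the median over all segments was 0.11 (log2), or -0.07 with DESeq2 or TMM scaling. DESeq2 gave 0.53 (adjusted p = 0.955), TMM scaling 0.71 (edgeR adjusted p = 0.296), the fit without iNKT-like cells, defined below, 0.81 (edgeR adjusted p = 0.315) and the fit without 5xFAD library 2 0.63 (edgeR adjusted p = 0.823). It was called with clones defined by the TRB alone (0.94, edgeR adjusted p = 0.0238), an alternative chosen after seeing the data, and without 5xFAD;Cxcr6-/- library 1 (1.03, edgeR adjusted p = 0.0274), and by none of the other alternatives. Large TRBV12-2 clones were already known from earlier results on these libraries, so this direction is not independent evidence.

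TRBV12-1 did not share that direction in every library. It was 2.99% of expanded against 5.12% of single clones and 1.905% against 4.66% in the 5xFAD;Cxcr6-/- libraries. In the 5xFAD libraries it was 5.56% of expanded against 4.88% of single clones and 5.62% against 5.08%. It was thus lower among expanded clones in both 5xFAD;Cxcr6-/- libraries and slightly higher in both 5xFAD libraries, with 2, 2, 8 and 14 expanded clones behind these shares, and 9 of 152 segments (5.92%) split the same way. On the same scale TRBV12-1 was at -0.13 (SE 0.32, edgeR adjusted p = 0.907), and its difference between genotypes was -1.21 (edgeR interaction, adjusted p = 0.983). For TRBV12-2 the interaction was -0.78 (adjusted p = 0.983, edgeR). Of the 20 other TRBV labels, 0 were called in either direction, with 3 at an unadjusted p under 0.05 and 10 above 0, and DESeq2 also called 0, with 3 at that level. The interaction with genotype called 0 of 152 segments, with 6 at an unadjusted p under 0.05.

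**Figure D3:**
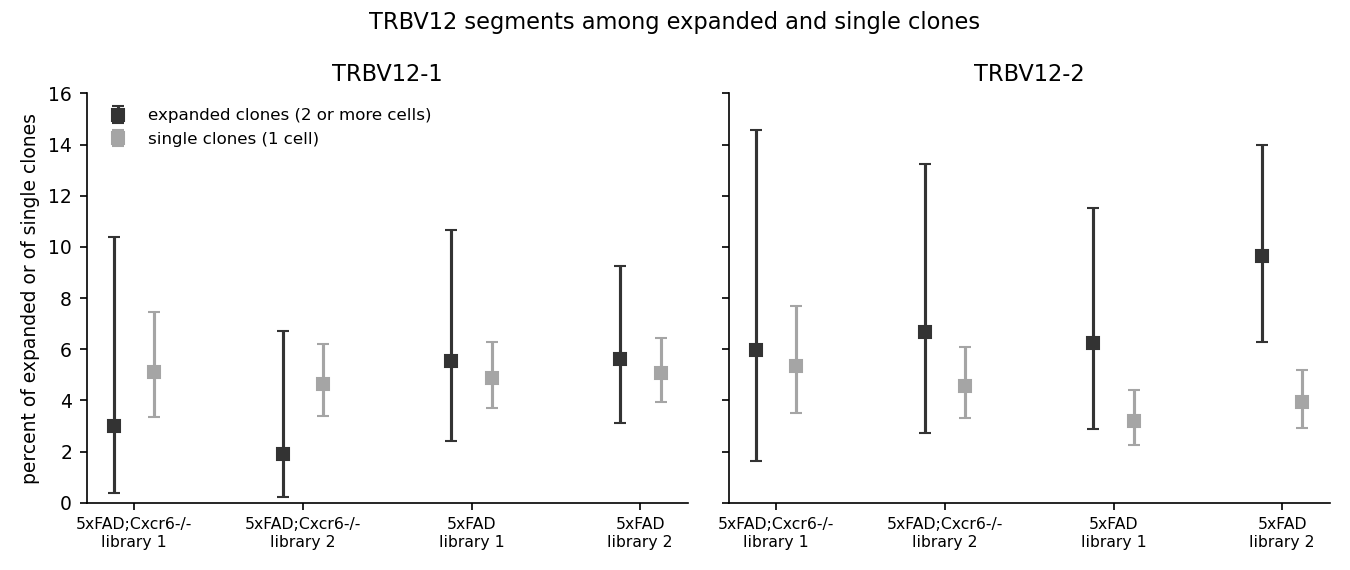
Percent of expanded (dark) and of single (light) clones that used TRBV12-1 (left) or TRBV12-2 (right) in each library, with 95% Clopper-Pearson intervals. TRBV12-2 reached 9.64% of expanded clones against 3.95% of single clones in 5xFAD library 2, and the intervals overlap in the other 3 libraries.

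The share of TRBV12 cells that belonged to expanded clones was lower in both 5xFAD;Cxcr6-/- libraries. With every library thinned to 745 cells, since more cells find more repeats, it was 23.9% and 33.3% in the 5xFAD;Cxcr6-/- libraries, against 40.5% and 57.9% in the 5xFAD libraries. The groups did not overlap, and the difference of means was -20.6 percentage points (28.6% ± 6.65 in 5xFAD;Cxcr6-/- and 49.2% ± 12.3 in 5xFAD, SD, n = 2 each). The exact permutation p was 0.333, the smallest this design allows. Without thinning the shares were 23.9% and 36.3% (16 of 67 and 49 of 135 cells), against 49.4% and 69.9% (89 of 180 and 260 of 372 cells). Without the largest TRBV12 clone of each library the thinned shares were 19.0% and 19.3%, against 26.8% and 48.7%. In 5xFAD library 2, other clonotypes with the same TRB chain as that clone stayed in. Cells with another TRBV had thinned shares of 35.4% and 22.8% in the 5xFAD;Cxcr6-/- libraries, against 36.8% and 32.9% in the 5xFAD libraries, and those groups overlapped. Without thinning they had 35.4% and 28.2%, against 43.5% and 45.3%, and those groups did not overlap either (difference of means -12.6 percentage points, exact permutation p = 0.333). A test of TRBV12 cells against other cells was not run.

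No TRBJ segment was called between TRBV12 and other TRBV clones. TRBJ2-7, TRBJ2-5 and TRBJ2-1 were used most, in 97, 51 and 49 TRBV12 clones. TRBJ2-7 was in 15.8% and 22.3% of TRBV12 clones in the 5xFAD;Cxcr6-/- libraries and in 22.2% and 28.7% in the 5xFAD libraries, against 22.3%, 19.6%, 22.1% and 21.1% of other clones of the same libraries. Its log2 fold change, TRBV12 over other, was 0.14 (SE 0.20, edgeR adjusted p = 0.933), and it turned negative with DESeq2 or TMM scaling. Those scalings moved the median over all 130 segments to -0.16 and -0.24, against 0.08 with the clone totals as offset.

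Among TRBV12 clones, TRBJ2-5 varied most of these 3 between libraries. It was in 22.8% and 13.8% of TRBV12 clones in the 5xFAD;Cxcr6-/- libraries and in 5.56% and 12.7% in the 5xFAD libraries, while other clones held 11.8%, 11.3%, 11.1% and 11.7%. The TRBV12 shares did not overlap between genotypes, as for 5 of 40 segments in that direction (12.5%), and the difference was not called (log2 fold change 0.82, SE 0.47, edgeR adjusted p = 0.910). TRBJ2-1 was in 12.3% and 9.57%, against 14.8% and 11.3%. Segments of the TRBJ2 cluster together took 68.4% and 68.1% of TRBV12 chains in the 5xFAD;Cxcr6-/- libraries and 67.6% and 76.0% in the 5xFAD libraries, against 59.0%, 65.0%, 63.2% and 63.3% of other chains.

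**Figure D4:**
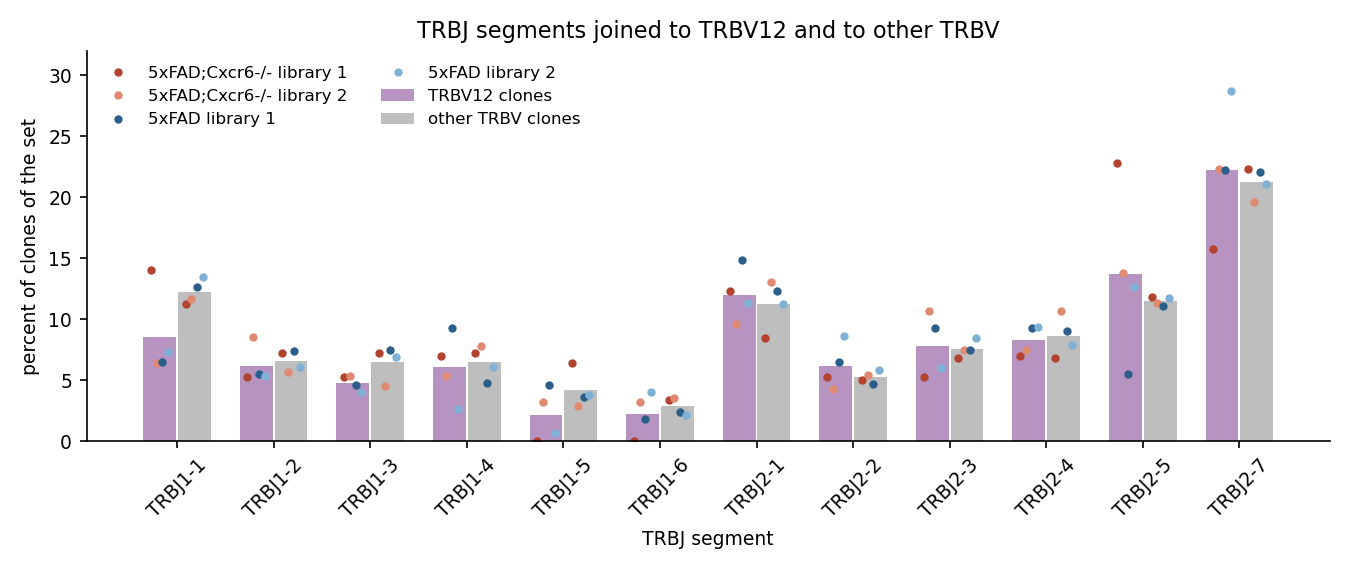
Percent of TRBV12 clones (purple bars) and of other TRBV clones (grey bars) that used each TRBJ segment; bars are means of 4 libraries and points the libraries. TRBJ2-7 leads in both sets, with means of 22.3% and 21.3%, and TRBJ2-5 spreads most among TRBV12 clones, between 5.56% and 22.8%.

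TRAJ45 was more frequent beside TRBV12 than beside other TRBV, a call that rested on few clones. It was in 4.08% and 7.06% of TRBV12 clones with a TRA in the 5xFAD;Cxcr6-/- libraries and in 6.59% and 3.15% in the 5xFAD libraries. Other clones of those libraries held 1.66%, 1.89%, 1.81% and 1.19%. TRBV12 clones were thus higher in 4 of 4 libraries, as for 9 of 130 segments (6.92%). This gave TRAJ45 a log2 value of 1.68, TRBV12 over other clones (SE 0.49, edgeR adjusted p = 0.0285), 1 of 3 calls among 130 segments (2.31%). The call was lost with DESeq2 (1.45, adjusted p = 0.649), with TMM scaling (1.34, edgeR adjusted p = 0.128) and without iNKT-like cells (1.49, edgeR adjusted p = 0.221). Without 5xFAD;Cxcr6-/- library 1 or 2 or 5xFAD library 1 the edgeR adjusted p was 0.0753, 0.351 and 0.313.

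The 18 TRBV12 clones with TRAJ45 were not one receptor found many times. They held 18 distinct TRA translations and 12 TRAV segments, 17 were single cells and the largest had 4 cells. TRBV12-1 was in 13 of them and TRBV12-2 in 5. The pair TRAV13-1 with TRAJ45 was in 5 clones from 3 libraries, the most frequent TRA pair of the family.

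TRAV11 and TRAJ18, the segments of the invariant chain of natural killer T (iNKT) cells, were rarer beside TRBV12. Cells with TRAV11 or TRAV11D joined to TRAJ18 are called iNKT-like here. Such cells usually carry Vbeta8, Vbeta7 or Vbeta2. TRAV11 was in 0 of 49 and 0 of 85 TRBV12 clones in the 5xFAD;Cxcr6-/- libraries (intervals 0 to 7.25% and 0 to 4.25%). In the 5xFAD libraries it was in 0 of 91 (0 to 3.97%) and in 4 of 127 clones (3.15%, 0.865 to 7.87). Other clones held 6.16% and 3.02% in the 5xFAD;Cxcr6-/- libraries, inside the intervals of TRBV12 clones, and 22.6% and 14.9% in the 5xFAD libraries, above them. The limit that 3 counts of the total set for a count of 0 was 6.12%, 3.53% and 3.30%. TRAV11 had a log2 fold change of -3.47, with an SE of 0.57 (edgeR adjusted p = 2.86e-07). TRAJ18, which other TRAV segments also join, stood at -1.77 with an SE of 0.39 (edgeR adjusted p = 0.000462). With DESeq2 and without 5xFAD library 1 the TRAJ18 call was lost (adjusted p = 0.0503 with DESeq2 and 0.115 with edgeR).

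The iNKT-like TRBV12 clones were those 4 of 5xFAD library 2, against 24, 22, 209 and 156 iNKT-like clones with another TRBV in 5xFAD;Cxcr6-/- libraries 1 and 2 and 5xFAD libraries 1 and 2. Together, 5 TRBV12 cells of 5xFAD library 2 held the invariant chain. All 5 also held a second TRA and 3 a second TRB. One further cell carried TRAV1 with TRAJ33, the invariant chain of mucosal-associated invariant T cells. Without iNKT-like cells 0 of 128 segments were called, with 9 at an unadjusted p under 0.05.

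Other frequent partners were spread over many segments. TRAV13-1 led the TRAV segments, in 6.12% and 7.06% of TRBV12 clones in the 5xFAD;Cxcr6-/- libraries and 8.79% and 8.66% in the 5xFAD libraries, against 2.61%, 3.77%, 2.44% and 4.77% of other clones. It was higher in 4 of 4 libraries, with a log2 fold change of 1.15 (SE 0.41, edgeR adjusted p = 0.138), and it was not called. Nor was it with DESeq2 (0.98, adjusted p = 0.999), with TMM scaling (0.83, edgeR adjusted p = 0.443), without iNKT-like cells (1.02, edgeR adjusted p = 0.388) or without any 1 library. It was called with rebuilt clones (1.32, edgeR adjusted p = 0.0253), without cells of 2 TRB chains (1.32, edgeR adjusted p = 0.0330) and with clones by the TRB alone (1.32, edgeR adjusted p = 0.0256). By mean share over the libraries TRAV12-2 and TRAV7D-2 followed, with means of 5.44% and 4.14% of TRBV12 clones, against 3.73% and 2.96% of other clones, and were not called. Among TRAJ segments, ranked by the same mean, TRAJ27, TRAJ22 and TRAJ26 averaged 5.69%, 5.65% and 5.28% of TRBV12 clones, against 3.62%, 6.58% and 3.81% of other clones, and were not called. By clones the order differed, with TRAV9D-3 in 15 against 14 for TRAV7D-2, and TRAJ33 in 19 against 18 for TRAJ22 and 17 for TRAJ26. TRAV segments include near-identical copies, so a TRAV name can be uncertain. The family used 337 distinct TRAV and TRAJ pairs, of which 277 were in 1 clone.

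**Figure D5:**
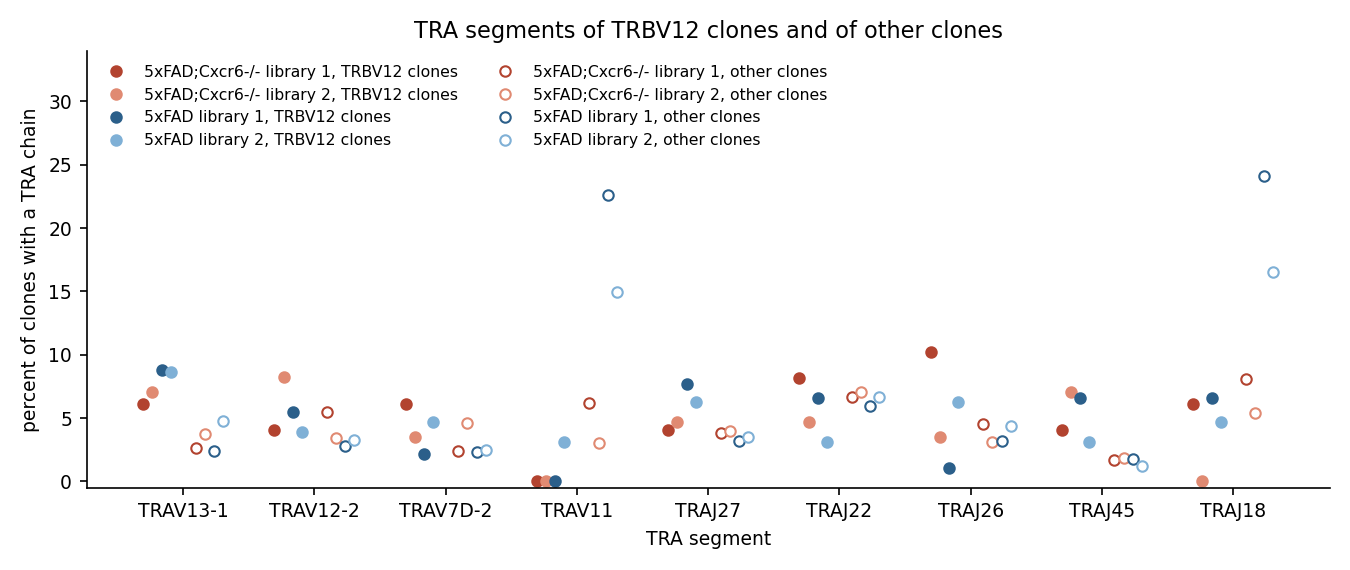
Percent of clones with a TRA chain that used each named TRA segment, for TRBV12 clones (filled points) and other clones (open points) of each library. TRAJ45 is between 3.15% and 7.06% beside TRBV12 and between 1.19% and 1.89% elsewhere, and TRAV11 is at 0 beside TRBV12 in 3 libraries.

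No partner segment was called between the genotypes or between the members. For TRBV12 clones by genotype, 0 of 40 segments were called by edgeR (0%) and 0 by DESeq2, with 0 and 0 at an unadjusted p under 0.05. For TRBV12-1 against TRBV12-2 clones, 0 of 40 were called by edgeR (0%) and 0 by DESeq2, with 2 and 0 at an unadjusted p under 0.05. TRBJ2-1 had the smallest p of the named segments there, with a log2 fold change, TRBV12-1 over TRBV12-2, of 1.03 (SE 0.48, edgeR adjusted p = 0.664). It was in 18.5%, 11.1%, 19.0% and 15.6% of TRBV12-1 clones, against 6.67%, 8.16%, 8.89% and 6.85% of TRBV12-2 clones, in 5xFAD;Cxcr6-/- libraries 1 and 2 and 5xFAD libraries 1 and 2. TRBV12-1 was higher in 4 of 4 libraries, as for 4 of 40 segments (10.0%). In the comparison with other clones, the interaction of partners with genotype called 0 of 130 segments, with 1 at an unadjusted p under 0.05. TRAJ45 had an interaction of 0.06 (edgeR adjusted p = 0.996).

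A second TRB chain was found in 5.26% and 8.51% of clones in the 5xFAD;Cxcr6-/- libraries and in 12.04% and 10.0% in the 5xFAD libraries, against 4.02%, 4.28%, 5.84% and 5.15% of other clones. A clone was counted in the family if any of its TRB chains was TRBV12. A clone with a second TRB chain thus had more chances to be counted, which by itself raises this share. The difference cannot be read as a trait of the family and was not tested. Clones without a TRA were 14.04%, 9.57%, 15.7% and 15.3% of TRBV12 clones, against 15.3%, 14.9%, 19.2% and 18.5% of other clones.

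The TRB CDR3 of the family was close in length to that of other chains. Its mean was 13.9 and 13.9 residues in the 5xFAD;Cxcr6-/- libraries and 14.1 and 13.9 in the 5xFAD libraries, against 13.8, 13.9, 14.02 and 13.8 for other chains of the same libraries. A length of 14 residues was the commonest, in 35.1%, 45.7%, 31.5% and 31.6% of TRBV12 chains. The mean difference was 0.0614 residues (SD 0.0424 over 4 libraries), positive in 4 of 4, and it turned to -0.00631 with each cell counted once. The exact two-sided sign-flip permutation p was 0.125, the smallest that 4 libraries allow, and 0.219 after adjustment over the 7 features.

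Kept germline V bases and the bases between the germline V and J parts differed slightly from other chains, without passing the adjusted threshold. The bases between include those of the D segment, which was not matched. TRBV12 chains kept 13.2 and 13.4 V bases in the 5xFAD;Cxcr6-/- libraries and 13.3 and 13.4 in the 5xFAD libraries, against 13.7, 13.7, 13.8 and 13.6 for other chains. The mean difference was -0.372 bases, with the same sign in 4 of 4 libraries. Bases between averaged 10.2, 10.4, 10.95 and 10.5 in TRBV12 chains, against 9.71, 9.82, 10.7 and 10.2 in other chains, a mean difference of 0.419. Both had an exact permutation p of 0.125 (adjusted p = 0.219). The germline CDR3 start was 15 bases long for both members and 14 to 21 for the 18 other TRBV segments matched, of which 16 were longer; its part in these differences was not tested. With each cell counted once, bases between turned to -0.0119.

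Hydrophobicity was taken over the CDR3 without 3 residues at each end. On the Kyte-Doolittle scale the means were -1.20 and -1.08 in the 5xFAD;Cxcr6-/- libraries and -1.06 and -0.997 in the 5xFAD libraries, against -1.32, -1.34, -1.28 and -1.31 for other chains. The mean difference was 0.230 (higher in 4 of 4 libraries, exact permutation p = 0.125, adjusted p = 0.219). With 5 residues left out at the start, which covers the 15 germline bases of the members, the mean difference was -0.0267. Its sign varied, at -0.130 and 0.0364 in the 5xFAD;Cxcr6-/- libraries and -0.0642 and 0.0511 in the 5xFAD libraries. In 16 of the 18 other TRBV segments matched the germline start is longer, so germline V bases can remain in other chains. This alternative was chosen after seeing the data. Net charge, kept J bases and the length of the TRA CDR3 differed in sign between libraries.

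Between genotypes no CDR3 feature of TRBV12 chains could reach an exact permutation p below 0.333. Bases between the germline V and J parts averaged 10.3 ± 0.162 in 5xFAD;Cxcr6-/- and 10.7 ± 0.293 in 5xFAD libraries (SD, n = 2 each). Hydrophobicity averaged -1.14 ± 0.0864 in 5xFAD;Cxcr6-/- and -1.03 ± 0.0412 in 5xFAD libraries. For both features the genotypes did not overlap (exact permutation p = 0.333, adjusted p = 0.778). The other CDR3 features overlapped between genotypes (exact permutation p of 0.667 or above). A split this complete has a probability of 0.333 when genotype plays no part, so the order is no result about either feature. Expanded TRBV12 clones had CDR3 means of 13.3, 14.2, 13.5 and 13.8 residues, against 13.98, 13.9, 14.2 and 13.9 for single clones, with 6, 9, 17 and 38 expanded chains.

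TRBV12 chains were almost private to their library. Of 393 distinct translated chains, 4 (1.02%) were in 2 libraries and 0 in 3, and 0 of 397 nucleotide CDR3 sequences were shared. Of the other TRBV translations, 19 of 3957 (0.480%) were in 2 or more libraries. Each shared translation was encoded by 2 different sequences, and all deposited clonotypes that carried one held 1 cell. In 5xFAD library 2 the shared TRBV12-1 and TRBJ1-1 chain was in 2 such clonotypes. Both had the same TRB sequence and a TRA of TRAV13-1 and TRAJ40. The chain of TRBV12-1 and TRBJ2-5 found in both 5xFAD libraries is shown because its alpha chain was shared as well. Capitals in the TRB sequences are as above. The TRA sequence was not matched to germline, so its lower case does not mark germline bases.

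5xFAD library 1, TRB: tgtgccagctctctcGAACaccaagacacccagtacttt

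5xFAD library 2, TRB: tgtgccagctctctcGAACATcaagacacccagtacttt

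Both libraries, TRA of TRAV16N and TRAJ22: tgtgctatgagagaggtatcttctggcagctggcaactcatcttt

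The TRA CDR3 was the same over all 45 bases in both libraries, while the TRB sequences differed. By translation, no other TRB and TRA pair of the family was found in 2 libraries. The other shared translations had different or missing TRA partners between libraries. They were a TRBV12-1 and TRBJ1-1 chain in both 5xFAD libraries, a TRBV12-1 and TRBJ2-7 chain in both 5xFAD;Cxcr6-/- libraries, and a TRBV12-2 and TRBJ1-1 chain in 5xFAD;Cxcr6-/- library 2 and 5xFAD library 1. The chain shared by the 5xFAD;Cxcr6-/- libraries was the shortest, with 33 bases, and its sequences follow.

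5xFAD;Cxcr6-/- library 1, TRBV12-1 and TRBJ2-7: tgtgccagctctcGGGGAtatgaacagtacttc

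5xFAD;Cxcr6-/- library 2, TRBV12-1 and TRBJ2-7: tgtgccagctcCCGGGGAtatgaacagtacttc

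Its alpha partners were TRAV4D-4 with TRAJ27 in 5xFAD;Cxcr6-/- library 1 and TRAV14D-1 with TRAJ7 in 5xFAD;Cxcr6-/- library 2.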

How the data were processed

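Receptor libraries were processed with Cell Ranger 6.0 on mm10, per the submitters' processing notes. The deposited contig tables give, per the file headers, the V and J names, CDR3, clonotype, and counts of reads and UMIs of each assembled chain; all chains were productive. Chains were tallied here as cells and clones (clonotypes with a TRB); no doublet caller was run and cells with 2 TRB were kept. Counts of clones per segment were tested with edgeR 4.0.16 (quasi-likelihood, offset of clones with that chain, at least 10 clones, Benjamini-Hochberg over all segments tested, threshold 0.05), with the library as a block where both sets came from one library. DESeq2 1.42.0 was an alternative. Shares and CDR3 features were compared by exact permutation over libraries (scipy 1.17.1). Thinning used 1000 seeded draws. Rebuilding of clones, trimming (without chance matches at the joints) and the edgeR fits were tested on simulated data. The exact tests and the thinning were not. Germline sequences are from GENCODE vM21 transcripts; TRBV10 did not match and was left out of trimming. Text names both members, every called partner segment, the 3 most used TRBJ, TRAV and TRAJ (by mean share over libraries), the 3 most alike TRBV labels, the 3 largest clones per library, and shared chains. Members, lists and tests were chosen with earlier results of these data known. Alternatives were rebuilt clones, clones by the TRB alone, other scalings and filters, left-out cells or libraries, and the replicate block.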

Additional observations from a re-analysis of the deposited data

Results flagged for a closer look

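The TRBV12 family as a whole moved in opposite directions between expanded and single clones in the 2 genotypes. It made up 8.96% of expanded against 10.5% of single clones and 8.57% against 9.21% in the 5xFAD;Cxcr6-/- libraries, and 11.8% against 8.07% and 15.3% against 9.03% in the 5xFAD libraries. The mean difference between the genotypes' effects was -6.05 percentage points. Every library of one genotype moved one way and every library of the other the opposite way, which is what drew attention to it, and 9 of 152 single segments (5.92%) split in the same direction. The expanded shares rest on 6 and 9 TRBV12 clones in the 5xFAD;Cxcr6-/- libraries and 17 and 38 in the 5xFAD libraries. Gaps of the 5xFAD;Cxcr6-/- libraries were -1.50 and -0.638 percentage points, and there the shares of single clones lie inside the counting intervals of the expanded shares (3.36 to 18.5% and 3.99 to 15.6%). Taken by itself, TRBV12-2 was higher among expanded clones in 4 of 4 libraries. The genotype difference of the summed family was not tested, and the interaction tests of its members were not called (edgeR adjusted p = 0.983 for each).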

How the results depend on the processing

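With 2 libraries per genotype, and 70 expanded TRBV12 clones in all, small differences are not detectable here. In all, 441 of 514 alternatives kept the direction and the side of the threshold, or a count within 1.5 times. A direction changed in 51, and the reversed values were not called in the analysis reported, except for TRAV11 and TRAJ18. Library-level values, judged by exact tests, made up 137 of the 514. With so few libraries those tests cannot pass the threshold, so only the direction of these values could change. It did so in 21. The cause of each change was not tested unless the alternative itself removes the cells or adds the joined label.

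Same-numbered libraries did not deviate together (correlation of deviations -0.0478 over 152 segments), which does not show whether they shared a batch. With the replicate block the genotype fit called 3 segments and the members were at -0.15 and 0.21. The exact sign-flip p for the expanded share was then 0.5, the smallest that this pairing allows.

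The genotype difference in TRBV12 share of clones was -0.520 percentage points without iNKT-like cells and -4.28 with the joined label added, and -0.367 to 1.22 without 1 library. The difference in share of cells was -5.59 to 0.771 without 1 library, and the difference in expanded share lay between -29.3 and -11.9 without 1 library. Segments called by genotype (edgeR) were 0 without iNKT-like cells and 0 with cells in place of clones, with 6 and 12 at an unadjusted p under 0.05. Expanded against single clones called 0 without iNKT-like cells (9 at an unadjusted p under 0.05) and 4 with TRB-alone clones. Partners called 1 with DESeq2, 0 without iNKT-like cells (9 at an unadjusted p under 0.05) and 1 to 3 without 1 library.

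Against other clones, each cell counted once gave -0.00631 residues in TRB CDR3 length, -0.0197 in net charge and -0.0119 bases between. Without iNKT-like cells net charge was -0.0295 and TRA CDR3 length 0.00652. Without the first 5 and last 3 residues hydrophobicity was -0.0267 and net charge -0.146. Without 1 library net charge ranged from -0.0664 to 0.0335 and J bases kept from -0.0286 to 0.218. By genotype, each cell counted once gave -0.278 J bases kept and 0.456 bases between. Without 1 library the genotype differences ranged from -0.227 to 0.0477 for CDR3 length, -0.0900 to 0.0261 for V bases kept, -0.0235 to 0.464 for J bases kept and -0.0404 to 0.280 for TRA CDR3 length.

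On the log2 scale, TRBV12-2 by genotype was -0.20 with cells in place of clones. TRBV12-1 in expanded against single clones was 0.11 with expanded meaning 3 or more cells, and -0.35 to 0.0382 without 1 library. With the joined label added, partner values were 1.35 for TRAJ18, 1.49 for TRAV11, -0.58 for TRAJ26, -0.63 for TRAV7D-2, -0.0862 for TRBJ2-1 and -0.0696 for TRBJ2-7. Without iNKT-like cells TRAJ18 was 0.29. DESeq2 gave -0.20 for TRBJ2-1, -0.15 for TRBJ2-5 and -0.20 for TRBJ2-7, and TMM scaling -0.28, -0.20 and -0.20. Without 1 library these ranged from -0.0413 to 0.21, -0.0868 to 0.37 and -0.0340 to 0.25. Genotype differences of partners ranged from -0.14 to 0.89 for TRAJ22, -0.21 to 1.28 for TRAJ26, -0.16 to 0.83 for TRAV12-2 and -0.0750 to 0.72 for TRAV7D-2. TRBV12-1 over TRBV12-2 ranged from -0.61 to 0.58 for TRAJ22, -0.38 to 0.41 for TRAJ27, -1.66 to 0.14 for TRAV12-2 and -0.22 to 0.28 for TRBJ2-7.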
